A study of Mus musculus with 24 samples.

Results

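Glycolysis and hypoxia response genes are the 41 genes of mouse dental mesenchyme that carry glucose into cells, break it down to pyruvate and lactate, or are established targets and regulators of the hypoxia-inducible factors. They were listed by name, with earlier results of these data known, and not by a cut on their values. All 41 were found by Ensembl identifier among the 56748 genes of the deposited read-count table. The libraries came from the first lower molar of ICR mouse embryos, at embryonic day 13 for the cap stage and embryonic day 15 for the bell stage. No allele, transgene or drug is named for any of these groups. There were 8 groups of 3 libraries. Cap_W and Bell_W held undivided dental mesenchyme. Cap_L and Bell_L held the mesenchyme of the lingual (tongue-side) part, and Cap_B and Bell_B that of the buccal (cheek-side) part. In Cap_L_2D and Cap_B_2D the lingual or buccal part of a cap-stage tooth germ had first been kept in vitro for 2 days, and its mesenchyme was then freed with dispase II. The oxygen level and the medium of this tooth germ culture are not given in the sources used here. Nor is it said which embryos went into which library. The p-values below therefore measure the spread between libraries, which may in part be technical, and cannot be read as that between animals. For well-counted genes, the squared difference between Cap_B libraries averaged 1.40 to 1.65 times that of counting noise alone. This ratio was 13.4 for Cap_L replicates 2 and 3, and 239 for Cap_W replicates 1 and 2.

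Glycolysis splits glucose into pyruvate through a chain of enzymes, most of which exist as isozymes from separate genes, and pyruvate is then either reduced to lactate and exported or oxidised in mitochondria. Hypoxia-inducible factors (HIF) are transcription factors whose alpha subunits are hydroxylated and destroyed when oxygen is plentiful. When oxygen falls, the alpha subunits persist and raise the transcription of glucose carriers, glycolytic enzymes, pyruvate dehydrogenase kinases and angiogenic peptides. Because this control acts on the alpha subunit protein, the messenger RNA of a HIF subunit does not report its activity. The tooth germ at these stages is an avascular epithelium lying on a condensed mesenchyme into which vessels grow.

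HIF binds a short core, written ACGTG or GCGTG, which was searched on both strands in the 250 bases before the annotated start of each gene's canonical transcript (GRCm39). The core, which is short enough to be common, was in 41.3% of 21770 protein-coding promoters and in 26 of the 41 members (63.4%). These shares were not adjusted for the GC content of the promoters. The promoters below belong to the 5 members with the largest mean change in culture among those that moved alike on both sides (values and tests follow). They are shown 5′ to 3′ on the gene's strand, with the core in capitals. Whether the core bears on the changes in culture was not tested. Adm (chr7:110226608-110226857, + strand) rose, and its 2 cores began 84 and 48 bases before the start. Slc16a3 (chr11:120839291-120839540, + strand) fell and had 1 core, 59 bases before the start. Ankrd37 (chr8:46452906-46453155, - strand) fell and had 3 matches, beginning 223, 137 and 134 bases before the start, of which the last 2 overlap on opposite strands. Pfkl (chr10:77845923-77846172, - strand) and Aldoc (chr11:78213544-78213793, + strand) fell and had no match in this window.
Adm: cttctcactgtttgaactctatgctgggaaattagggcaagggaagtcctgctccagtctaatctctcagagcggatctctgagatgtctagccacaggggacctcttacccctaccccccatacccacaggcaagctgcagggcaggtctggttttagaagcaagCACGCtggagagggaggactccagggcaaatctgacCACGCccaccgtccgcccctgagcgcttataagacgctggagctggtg
Slc16a3: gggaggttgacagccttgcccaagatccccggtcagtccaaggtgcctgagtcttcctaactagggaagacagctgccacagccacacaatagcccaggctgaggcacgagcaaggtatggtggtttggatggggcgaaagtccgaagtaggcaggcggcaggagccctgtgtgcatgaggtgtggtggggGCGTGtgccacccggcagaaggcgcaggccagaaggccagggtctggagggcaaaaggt
Ankrd37: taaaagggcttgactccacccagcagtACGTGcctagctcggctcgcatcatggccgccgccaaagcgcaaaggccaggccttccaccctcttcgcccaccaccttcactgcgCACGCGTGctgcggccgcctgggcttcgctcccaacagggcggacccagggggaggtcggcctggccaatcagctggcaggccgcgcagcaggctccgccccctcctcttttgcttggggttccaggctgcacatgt
Pfkl: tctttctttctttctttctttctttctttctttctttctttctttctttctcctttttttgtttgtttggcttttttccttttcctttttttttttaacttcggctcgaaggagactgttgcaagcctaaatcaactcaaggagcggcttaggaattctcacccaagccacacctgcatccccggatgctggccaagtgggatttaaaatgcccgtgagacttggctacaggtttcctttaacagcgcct
Aldoc: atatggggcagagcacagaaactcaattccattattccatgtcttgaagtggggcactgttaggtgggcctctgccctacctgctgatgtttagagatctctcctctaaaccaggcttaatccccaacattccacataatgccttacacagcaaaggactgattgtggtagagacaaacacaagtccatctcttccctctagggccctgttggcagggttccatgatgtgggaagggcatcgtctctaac
Over the members called alike on both sides, 3 of the 4 that rose and 2 of the 6 that fell held a core.

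Each library held 20581720 to 39266497 read pairs assigned to genes (median 27677164), so 3 read pairs, the least that counts as detection here, correspond to 0.0764 to 0.146 CPM (counts per 1000000 assigned read pairs), and all 41 members lay above that in every library. Levels are given as CPM after TMM scaling over the 24 libraries. Among the undivided libraries, Cap_W replicate 1 had 7.95% mitochondrial and 5.39% Rn18s-rs5 counts, against 2.24 to 4.05% and 0.0761 to 1.43% in the other 23, and 1 Bell_W library, replicate 3, held 2148 CPM of epithelial markers against 499 and 594 in the rest of its group. The libraries carried markers of the labelled tissue: 12 genes of dental and facial mesenchyme, such as Msx1, Pax9 and Lhx8, summed to 8046 to 14529 CPM in the separated parts. Of these, 3 were higher and 4 lower in lingual culture, and 3 higher and 3 lower in buccal culture. Pdgfra, Col3a1 and Vim were higher on both sides. Msx1, Lhx6 and Dlx1 were lower on both sides, and Lhx8 on the lingual side. Over all genes, 19.6% rose and 15.9% fell in lingual and 17.9% and 16.6% in buccal culture. Markers of other cell types moved with culture. The sum of 10 erythroid genes ran from 2916 to 3603 CPM in Cap_L and 3359 to 3494 in Cap_B, and from 34.6 to 40.8 in Cap_L_2D and 35.7 to 41.2 in Cap_B_2D. All 10 fell on both sides. Skeletal muscle genes summed to 22.8 to 23.9 CPM in Cap_L and 388 to 420.0 in Cap_L_2D, and to 272 to 289.5 in Cap_B and 4845 to 5145 in Cap_B_2D, with 12 and 13 of 13 genes higher. Endothelial genes summed to 605 to 618 CPM in Cap_L and 497 to 505 in Cap_L_2D (3 of 10 lower, 1 higher), and to 536 to 543 in Cap_B and 219 to 227 in Cap_B_2D (10 of 10 lower). Epithelial genes stood at 512 to 560 CPM in Cap_L, 414 to 445 in Cap_L_2D, 379 to 395 in Cap_B and 89.1 to 90.1 in Cap_B_2D. Macrophage genes rose from 97.7 to 102 to 319 to 334 CPM on the lingual side (9 of 10 higher) and from 104 to 108 to 211 to 226 on the buccal side (8 of 10 higher). No gene of these 5 lists was without counts in a whole cultured group. The part of these cells in the members' changes was not tested, and in bulk tissue fewer cells of a type and less RNA per cell cannot be told apart.

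Many glycolytic genes have processed copies elsewhere in the genome, and a comparison of transcript sequences found such copies with counts for 12 of the 41 members. The copies held 88.8% of the joint counts of Pgk1 and its copies, 87.6% for Eno1, 77.8% for Ldhb, 68.3% for Pkm, 67.2% for Higd1a and 62.7% for Gpi1. For Ldha, Pgam1, Tpi1, Bnip3, Bnip3l and Aldoa they held 12.3 to 59.6%. The levels of these 12 genes may therefore be too low as printed, and their changes were computed again with the copies' counts added. The changes hardly moved: with copies, Eno1 in lingual culture went from -1.02 to -0.97 and Tpi1 in buccal culture from -1.01 to -1.06 on the log2 scale. Bnip3 alone changed a call in culture: it passed on the lingual side without copies and on the buccal side with them. With copies added and divided by exon length, Pkm led the members at 221 CPM per kb in Cap_L and 197 in Cap_B, with Ldha, Tpi1, Eno1, Pgk1 and Pgam1 next in both groups. Adm, Pfkp and Ankrd37 were near the bottom of that scale, Adm at 0.487 CPM per kb in Cap_L.

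The first question was whether 2 days in culture moved these genes from their cap-stage level, and the answer differed from member to member. A gene was said to rise or fall where the adjusted p of edgeR's quasi-likelihood test was under 0.05 and the absolute log2 fold change over 0.5. Values after ± are approximate standard errors of the log2 fold change. They were computed as its absolute value divided by the square root of the test's F statistic. Where a pair of log2 fold changes stands together, the lingual comes first and the buccal second. In the lingual part 8 of 41 members rose and 10 fell, where 19.6% of all genes tested rose and 15.9% fell. In the buccal part 6 rose and 8 fell, against 17.9% and 16.6% of all genes. The members' shares, 19.5 and 24.4% on the lingual side and 14.6 and 19.5% on the buccal side, were above those of all genes for falls and not for rises, by a few genes. Its median log2 fold change was -0.068 on the lingual and -0.17 on the buccal side, beside -0.032 and -0.020 over all genes. Both culture comparisons use separate libraries, and 10 members passed in both, always in the same direction: Adm, Pfkp, Pfkfb3 and Hk2 rose, and Slc16a3, Pfkl, Ankrd37, Aldoc, Tpi1 and Pdk1 fell. These are 55.6% of the 18 lingual and 71.4% of the 14 buccal calls. Over all genes tested on both sides, 61.7% of the lingual and 64.8% of the buccal calls were shared in this way.

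**Figure D1:**
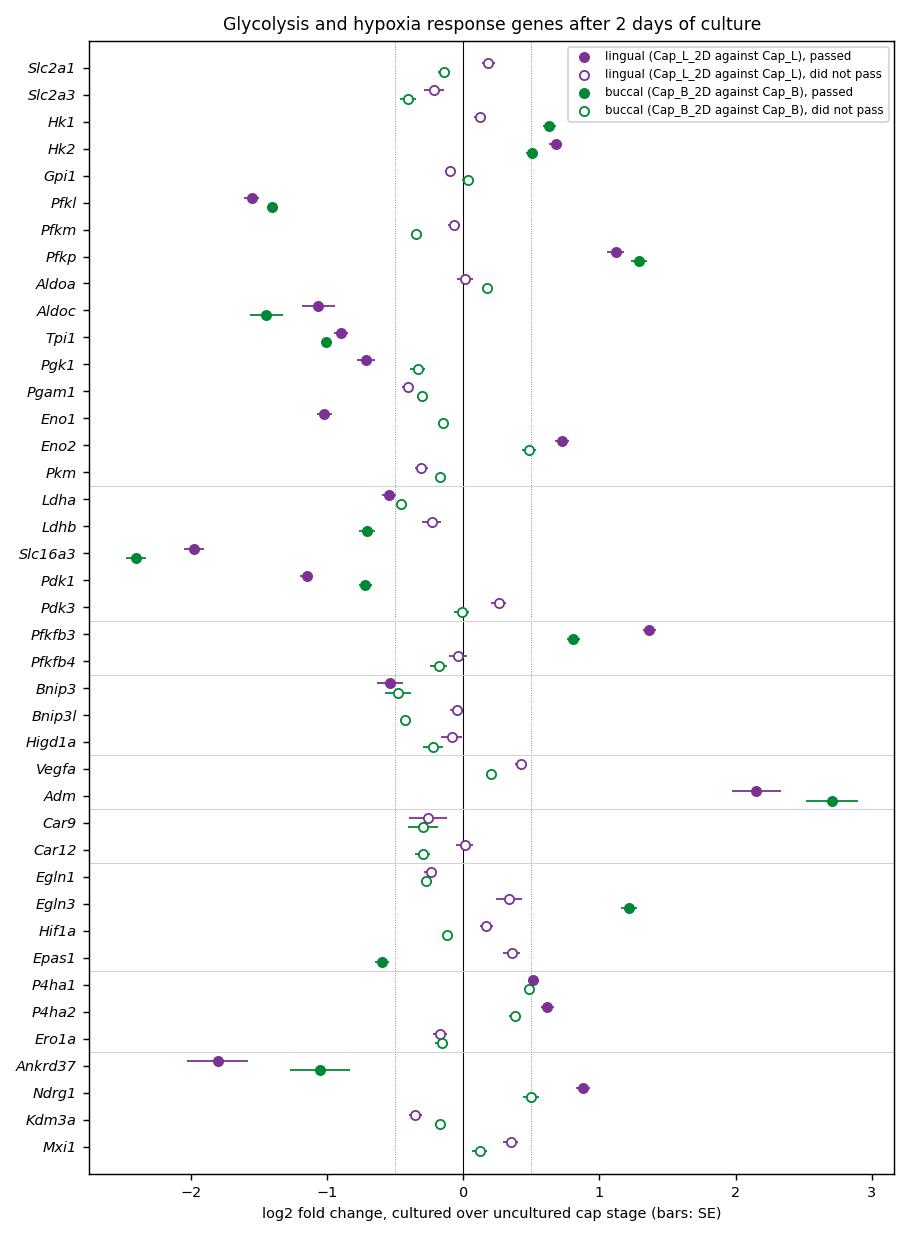
Change of the 41 members after 2 days of culture, as log2 fold change over the uncultured cap-stage part (x axis), for the lingual and the buccal part. Bars are approximate standard errors (3 libraries against 3). Grey lines separate the members by role, dotted lines mark 0.5 on either side, and filled points passed the test: Slc16a3 lies farthest left and Adm farthest right on both sides.

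Of the 16 genes of glucose transport and glycolysis, 3 rose and 5 fell in lingual culture (all genes 19.6% and 15.9%). In buccal culture 3 rose and 3 fell (all genes 17.9% and 16.6%). Slc2a1 and Slc2a3 encode the glucose carriers. Slc2a1 read 90.6, 104 and 94.3 CPM in Cap_L, 109, 108 and 110.3 in Cap_L_2D and 88.9, 87.8 and 90.02 in Bell_L. Buccal Slc2a1 read 81.2, 79.3 and 81.02 CPM in Cap_B, 70.3, 73.4 and 78.03 in Cap_B_2D and 74.03, 70.3 and 71.99 in Bell_B. Undivided mesenchyme held 76.4, 76.9 and 88.4 CPM in Cap_W and 59.5, 58.7 and 97.7 in Bell_W. The lingual cultured libraries lay just above and the buccal just below their cap libraries, and neither change passed the fold limit (log2 fold change 0.18 ± 0.047 and -0.14 ± 0.040). Slc2a3 was at -0.21 and -0.41 on the log2 scale, also within the limit.

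Hexokinases trap glucose in the cell as a phosphate. Hk2 stood at 64.02, 59.97 and 63.1 CPM in Cap_L, 95.8, 98.1 and 103 in Cap_L_2D and 52.4, 45.6 and 51.02 in Bell_L. The buccal Hk2 values were 38.5, 40.6 and 39.9 CPM in Cap_B, 56.95, 56.7 and 57.3 in Cap_B_2D and 41.9, 41.9 and 42.8 in Bell_B. In undivided mesenchyme Hk2 was at 51.1, 44.7 and 49.8 CPM in Cap_W and 34.3, 39.7 and 48.2 in Bell_W. Every cultured library exceeded every cap library of its side, and the rise passed on both sides (log2 fold change 0.68 ± 0.051, adjusted p = 1.3e-11 lingual; 0.50 ± 0.042, adjusted p = 2.24e-12 buccal). The buccal rise lay on the fold limit and did not pass without Cap_B replicate 1 or without Cap_B_2D replicate 3. Hk1 read 75.6, 79.9 and 77.4 CPM in Cap_L, 84.5, 81.7 and 86.0 in Cap_L_2D and 69.2, 70.7 and 70.4 in Bell_L. Buccal Hk1 read 68.8, 63.5 and 61.2 CPM in Cap_B, 94.6, 98.5 and 111 in Cap_B_2D and 72.8, 68.8 and 75.2 in Bell_B. Undivided mesenchyme held 82.1, 55.5 and 60.9 CPM in Cap_W and 59.9, 64.5 and 75.1 in Bell_W. Hk1 was above its cap level in every cultured library, but passed in the buccal part alone, with 0.63 ± 0.049, adjusted p = 3.92e-13, beside 0.12 ± 0.043 in the lingual part. Per kb of exon, Hk2 made up 53.4% of Hk1 and Hk2 together in Cap_L and 62.8% in Cap_L_2D, but 46.8% in Cap_B and 44.6% in Cap_B_2D.

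Phosphofructokinase, which commits the sugar to glycolysis, is built from liver (Pfkl), muscle (Pfkm) and platelet (Pfkp) type subunits, and these parted in culture. Pfkl stood at 165, 185 and 169 CPM in Cap_L, 61.7, 53.95 and 60.4 in Cap_L_2D and 135, 122 and 128 in Bell_L. The buccal Pfkl values were 156, 149.7 and 155 CPM in Cap_B, 55.1, 60.4 and 61.3 in Cap_B_2D and 148, 134 and 145 in Bell_B. In undivided mesenchyme Pfkl was at 160.4, 139 and 155 CPM in Cap_W and 142, 134 and 176 in Bell_W. Cultured Pfkl lay at 0.341 times its lingual and 0.378 times its buccal cap level, with no overlap (log2 fold change -1.55 ± 0.055, adjusted p = 3.76e-18 and -1.40 ± 0.042, adjusted p = 3e-24). Pfkp read 12.7, 13.3 and 13.4 CPM in Cap_L, 28.9, 27.98 and 28.4 in Cap_L_2D and 20.9, 20.9 and 18.9 in Bell_L. Buccal Pfkp read 13.8, 12.8 and 13.1 CPM in Cap_B, 31.9, 34.1 and 32.5 in Cap_B_2D and 21.6, 21.2 and 21.5 in Bell_B. Undivided mesenchyme held 9.51, 9.74 and 10.1 CPM in Cap_W and 21.9, 20.3 and 32.4 in Bell_W. Pfkp went the other way, to 2.17 and 2.45 times its cap level, again without overlap (1.12 ± 0.063, adjusted p = 4.62e-14 and 1.29 ± 0.057, adjusted p = 1.45e-19). Pfkm stood at 100.9, 105 and 100.5 CPM in Cap_L, 97.2, 92.8 and 101.3 in Cap_L_2D and 89.5, 82.2 and 85.7 in Bell_L. The buccal Pfkm values were 105, 105 and 109 CPM in Cap_B, 81.3, 84.9 and 88.3 in Cap_B_2D and 85.8, 84.2 and 89.9 in Bell_B. In undivided mesenchyme Pfkm was at 91.5, 84.8 and 86.4 CPM in Cap_W and 87.8, 91.2 and 79.8 in Bell_W. Lingual Pfkm overlapped its cap level and buccal Pfkm lay below it within the fold limit (-0.068 ± 0.046 and -0.35 ± 0.038). On a per-kb scale Pfkl was 45.01% of the family in Cap_L and 21.97% in Cap_L_2D, and 41.2% in Cap_B and 24.1% in Cap_B_2D. Pfkp went from 1.71 to 5.31% and from 1.77 to 6.68%, and the remainder was Pfkm. Exon length here covers all annotated exons of a gene: 13401 bases for Pfkp, 6675 for Pfkl and 3340 for Pfkm. The per-kb shares of this and the other families therefore depend on the annotation. In CPM not divided by length, Pfkl stood above Pfkm in Cap_L. The whole family fell from 57.5 to 39.99 CPM per kb on the lingual side and from 55.8 to 36.7 on the buccal side (group means; the ranges of the libraries do not overlap).

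**Figure D2:**
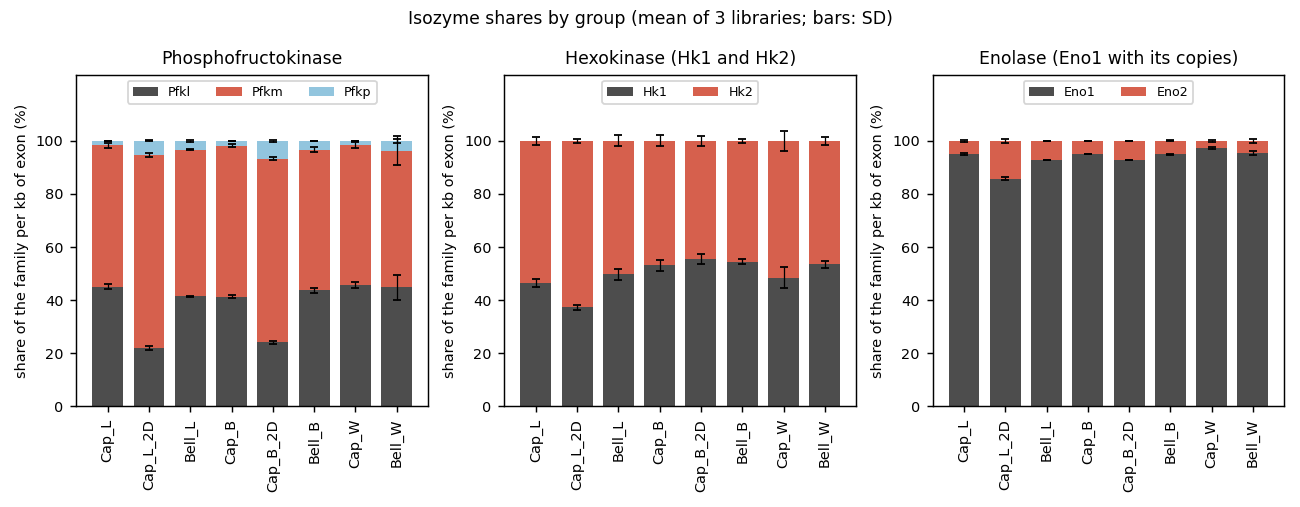
Share of each isozyme gene in its family (y axis, percent of CPM per kb of exon; counts of processed copies added for Eno1) in the 8 groups, as stacked means of 3 libraries with SD bars. The Pfkl share is near 21.97 and 24.1% in the cultured groups and 41.2% or more in all 6 others, while the Hk2 and Eno2 shares are highest in Cap_L_2D.

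Aldolase and triosephosphate isomerase, the enzymes that split the sugar and interconvert the products, come next. Aldoc read 7.37, 8.63 and 6.57 CPM in Cap_L, 3.45, 3.16 and 4.09 in Cap_L_2D and 4.64, 4.19 and 4.35 in Bell_L. Buccal Aldoc read 6.54, 5.90 and 7.08 CPM in Cap_B, 2.06, 2.54 and 2.72 in Cap_B_2D and 5.41, 5.62 and 5.00 in Bell_B. Undivided mesenchyme held 9.45, 6.58 and 7.87 CPM in Cap_W and 6.34, 4.48 and 21.8 in Bell_W. Aldoc, the brain-type aldolase, was low throughout apart from Bell_W replicate 3, and fell in culture on both sides (-1.06 ± 0.12, adjusted p = 2.05e-08 and -1.45 ± 0.12, adjusted p = 2.79e-12). Aldoa, the main aldolase gene here, was at 0.013 and 0.17 and passed in no comparison. Tpi1 stood at 172, 203 and 178 CPM in Cap_L, 98.6, 96.95 and 100.5 in Cap_L_2D and 164, 154 and 159.9 in Bell_L. The buccal Tpi1 values were 161, 159.9 and 167 CPM in Cap_B, 79.2, 83.96 and 83.2 in Cap_B_2D and 159, 162 and 155 in Bell_B. In undivided mesenchyme Tpi1 was at 188, 159 and 171 CPM in Cap_W and 172, 145 and 189.6 in Bell_W. Each cultured library had less Tpi1 than any uncultured library (log2 fold change -0.90 ± 0.051, adjusted p = 6.55e-14 and -1.01 ± 0.035, adjusted p = 2.56e-22).

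Among the later steps of the chain, Pgk1 and Eno1 were lower and Eno2 higher in culture, and all 3 changed unequally on the sides (the interaction test is given further on). Pgk1 read 28.3, 30.7 and 28.5 CPM in Cap_L, 17.9, 18.9 and 16.7 in Cap_L_2D and 21.9, 22.6 and 24.9 in Bell_L. Buccal Pgk1 read 27.4, 26.1 and 24.9 CPM in Cap_B, 21.6, 19.95 and 21.3 in Cap_B_2D and 27.7, 28.7 and 27.04 in Bell_B. Undivided mesenchyme held 27.2, 29.8 and 30.4 CPM in Cap_W and 29.1, 25.3 and 38.2 in Bell_W. Phosphoglycerate kinase, an ATP-forming step, fell in lingual culture (-0.71 ± 0.066, adjusted p = 7.12e-10) and was lower within the limit in buccal culture (-0.34 ± 0.056). Eno1 stood at 79.8, 97.1 and 86.5 CPM in Cap_L, 41.99, 44.9 and 42.5 in Cap_L_2D and 73.6, 71.8 and 69.9 in Bell_L. The buccal Eno1 values were 76.7, 75.4 and 75.8 CPM in Cap_B, 66.8, 69.4 and 72.8 in Cap_B_2D and 85.4, 88.2 and 87.5 in Bell_B. In undivided mesenchyme Eno1 was at 115, 74.1 and 80.6 CPM in Cap_W and 69.7, 57.99 and 98.9 in Bell_W. Eno1, the ubiquitous enolase, stood at 0.493 times its cap level in lingual culture (-1.02 ± 0.057, adjusted p = 4.03e-14) and at 0.904 times in buccal culture (-0.15 ± 0.039). Eno2 read 31.04, 32.5 and 30.6 CPM in Cap_L, 49.9, 51.7 and 53.7 in Cap_L_2D and 38.5, 35.6 and 37.1 in Bell_L. Buccal Eno2 read 28.9, 26.7 and 27.6 CPM in Cap_B, 36.6, 39.2 and 41.96 in Cap_B_2D and 32.5, 30.9 and 30.5 in Bell_B. Undivided mesenchyme held 12.8, 16.7 and 16.4 CPM in Cap_W and 27.1, 28.4 and 27.03 in Bell_W. Eno2, the enolase best known from neurons, rose in lingual culture (0.73 ± 0.051, adjusted p = 4.09e-12) and stayed just within the fold limit in buccal culture (0.48 ± 0.053). With the copies of Eno1 added, Eno2 made up 4.88% of enolase per kb in Cap_L, 14.2% in Cap_L_2D, 4.98% in Cap_B and 7.13% in Cap_B_2D. Gpi1 (-0.095 and 0.035), Pgam1 (-0.40 and -0.30) and Pkm (-0.31 and -0.17), which encode the isomerase, mutase and pyruvate kinase, did not pass on either side.

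Of the 5 genes that decide what becomes of pyruvate, 3 fell on each side, where 15.9% of all genes fell in lingual and 16.6% in buccal culture. Slc16a3 and Pdk1 fell on both sides, Ldha on the lingual side and Ldhb on the buccal side. Slc16a3 encodes the carrier that exports lactate from glycolytic cells, and it changed most of all members that fell. Slc16a3 stood at 34.2, 39.6 and 37.3 CPM in Cap_L, 8.78, 9.76 and 9.48 in Cap_L_2D and 26.97, 25.1 and 24.1 in Bell_L. The buccal Slc16a3 values were 22.7, 21.7 and 22.8 CPM in Cap_B, 4.28, 4.32 and 4.27 in Cap_B_2D and 26.2, 24.7 and 26.8 in Bell_B. In undivided mesenchyme Slc16a3 was at 13.01, 20.4 and 22.5 CPM in Cap_W and 24.96, 21.1 and 31.1 in Bell_W. The 3 cultured libraries of each side lay close together and below every uncultured library. Lingual culture left 0.254 and buccal culture 0.189 of the cap level (-1.98 ± 0.071, adjusted p = 4.85e-18 and -2.40 ± 0.074, adjusted p = 6.9e-24). Pdk1 read 62.6, 60.6 and 62.7 CPM in Cap_L, 28.8, 27.4 and 27.2 in Cap_L_2D and 61.1, 58.9 and 60.7 in Bell_L. Buccal Pdk1 read 53.9, 53.3 and 53.9 CPM in Cap_B, 35.7, 31.4 and 31.8 in Cap_B_2D and 51.01, 49.7 and 49.6 in Bell_B. Undivided mesenchyme held 55.3, 50.2 and 60.5 CPM in Cap_W and 59.9, 59.7 and 58.8 in Bell_W. Pdk1, the kinase that shuts off pyruvate dehydrogenase, was lower in all 6 cultured libraries than in any other library (-1.15 ± 0.048, adjusted p = 1.25e-16 and -0.72 ± 0.047, adjusted p = 4.23e-15). Pdk3 stood at 32.8, 34.9 and 32.4 CPM in Cap_L, 40.1, 40.96 and 38.6 in Cap_L_2D and 34.1, 30.4 and 33.4 in Bell_L. The buccal Pdk3 values were 29.02, 28.9 and 28.3 CPM in Cap_B, 29.8, 29.4 and 27.4 in Cap_B_2D and 31.2, 32.5 and 28.8 in Bell_B. In undivided mesenchyme Pdk3 was at 37.2, 29.3 and 26.6 CPM in Cap_W and 31.95, 34.6 and 37.3 in Bell_W. Its relative Pdk3 did not pass on either side (0.26 ± 0.055 and -0.012 ± 0.054). Ldha, the subunit that favours lactate formation, fell in lingual culture by 0.55 on the log2 scale, a call that did not pass without Cap_L replicate 2, and was at -0.46 in buccal culture. Ldhb read 22.3, 27.3 and 24.5 CPM in Cap_L, 19.7, 22.7 and 20.5 in Cap_L_2D and 20.8, 19.5 and 20.5 in Bell_L. Buccal Ldhb read 22.3, 21.6 and 22.5 CPM in Cap_B, 13.4, 13.9 and 13.95 in Cap_B_2D and 20.9, 21.7 and 19.99 in Bell_B. Undivided mesenchyme held 45.8, 23.8 and 27.2 CPM in Cap_W and 24.1, 25.9 and 26.6 in Bell_W. Ldhb, the subunit of oxidative tissues, fell in buccal culture (-0.71 ± 0.060, adjusted p = 3.19e-12) and was at -0.23 ± 0.071 in lingual culture, where the libraries overlapped.

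Pfkfb3 and Pfkfb4 encode the bifunctional enzymes that set the level of the sugar bisphosphate activating phosphofructokinase. Pfkfb3 stood at 47.7, 45.2 and 47.3 CPM in Cap_L, 117, 120.1 and 122 in Cap_L_2D and 32.2, 31.6 and 34.7 in Bell_L. The buccal Pfkfb3 values were 37.7, 41.3 and 41.3 CPM in Cap_B, 72.4, 68.7 and 72.5 in Cap_B_2D and 34.7, 30.7 and 34.3 in Bell_B. In undivided mesenchyme Pfkfb3 was at 33.97, 39.3 and 43.4 CPM in Cap_W and 27.3, 26.4 and 30.6 in Bell_W. Pfkfb3 reached 2.58 times its cap level in lingual and 1.75 times in buccal culture (1.37 ± 0.046, adjusted p = 1.73e-18 and 0.81 ± 0.047, adjusted p = 2.2e-16), and its bell libraries lay below the cap libraries of the same tissue. Pfkfb4 was at -0.039 and -0.18 and passed in no comparison.

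The genes that sense oxygen did not move as a block. Hif1a and Epas1 encode the alpha subunits of HIF, and Egln1 and Egln3 the prolyl hydroxylases that mark these subunits for destruction. Hif1a read 179, 169.8 and 176 CPM in Cap_L, 192, 202 and 194 in Cap_L_2D and 175, 191 and 192 in Bell_L. Buccal Hif1a read 263, 248 and 252 CPM in Cap_B, 248, 239.6 and 226 in Cap_B_2D and 212, 214 and 204 in Bell_B. Undivided mesenchyme held 241, 192 and 179.9 CPM in Cap_W and 197, 197 and 171 in Bell_W. Hif1a did not pass in culture on either side (0.17 ± 0.045 and -0.12 ± 0.035), and its highest group mean was in Cap_B. Epas1 stood at 33.7, 32.1 and 38.8 CPM in Cap_L, 43.5, 42.6 and 46.5 in Cap_L_2D and 52.8, 52.1 and 48.6 in Bell_L. The buccal Epas1 values were 36.6, 35.98 and 35.1 CPM in Cap_B, 22.9, 23.1 and 26.04 in Cap_B_2D and 57.8, 56.6 and 57.4 in Bell_B. In undivided mesenchyme Epas1 was at 11.3, 16.6 and 19.1 CPM in Cap_W and 48.7, 48.2 and 43.1 in Bell_W. Epas1 fell in buccal culture (-0.60 ± 0.052, adjusted p = 5.63e-12), while its lingual cultured libraries lay above their cap libraries within the limit (0.36 ± 0.062). Epas1 is abundant in endothelium, and the endothelial sum given above also dropped further in buccal than in lingual culture, which was not tested as a source. Egln3 read 8.19, 8.04 and 6.85 CPM in Cap_L, 9.40, 10.4 and 9.26 in Cap_L_2D and 9.81, 7.47 and 9.04 in Bell_L. Buccal Egln3 read 12.2, 13.97 and 13.8 CPM in Cap_B, 31.6, 30.8 and 32.1 in Cap_B_2D and 13.3, 13.02 and 12.01 in Bell_B. Undivided mesenchyme held 12.5, 9.48 and 11.7 CPM in Cap_W and 6.58, 6.69 and 16.9 in Bell_W. Egln3 rose in buccal culture to 2.33 times its cap level (1.22 ± 0.061, adjusted p = 3.82e-18) and was at 0.34 ± 0.098 in lingual culture. Egln1 stood at 65.1, 71.2 and 62.8 CPM in Cap_L, 56.2, 55.8 and 56.1 in Cap_L_2D and 70.2, 71.6 and 74.8 in Bell_L. The buccal Egln1 values were 61.1, 60.2 and 56.3 CPM in Cap_B, 51.2, 50.2 and 47.6 in Cap_B_2D and 71.5, 67.8 and 68.8 in Bell_B. In undivided mesenchyme Egln1 was at 72.99, 56.01 and 63.9 CPM in Cap_W and 59.9, 69.3 and 77.3 in Bell_W. Egln1 was slightly lower in every cultured library than in the cap libraries of its side and did not pass (-0.24 ± 0.049 and -0.27 ± 0.043).

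**Figure D3:**
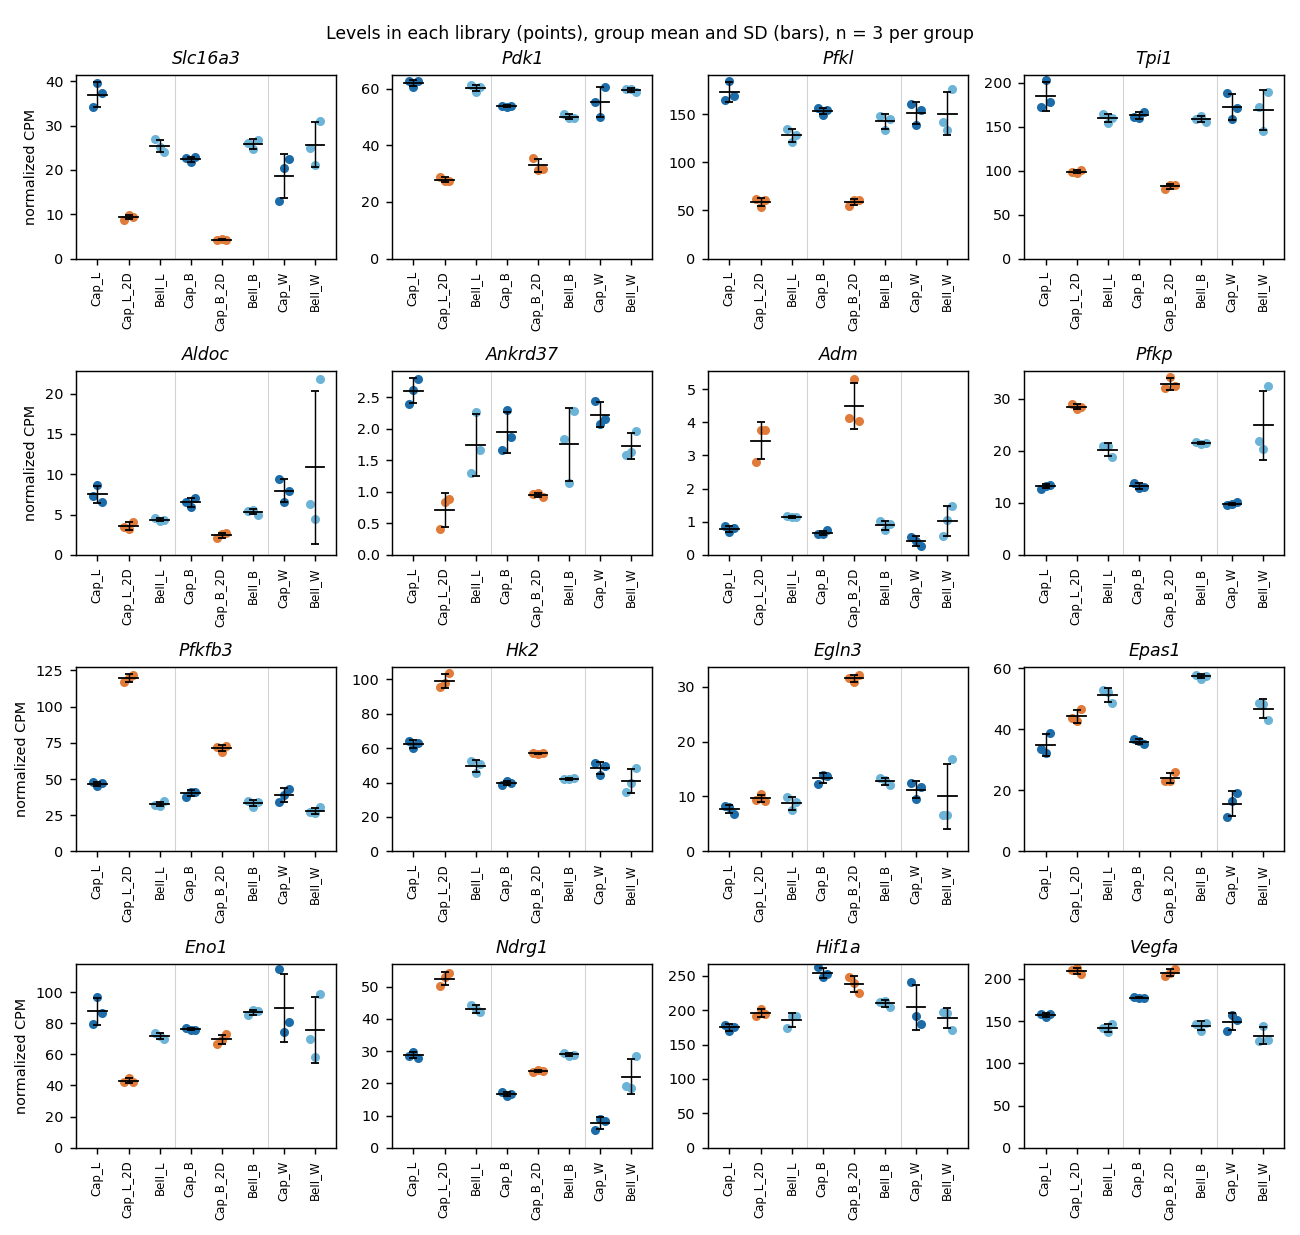
Normalized CPM (y axes, from 0) of 16 members in each of the 24 libraries (points), with the mean and SD of each group of 3. Cultured groups are orange, cap groups dark blue and bell groups light blue. Slc16a3, Pdk1, Pfkl and Tpi1 are lowest in the cultured groups, Pfkfb3 and Adm highest there, and Egln3 stands out in Cap_B_2D alone.

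Adm and Vegfa encode secreted factors, the vasodilator adrenomedullin and the main angiogenic factor. Adm read 0.858, 0.696 and 0.812 CPM in Cap_L, 2.79, 3.76 and 3.76 in Cap_L_2D and 1.18, 1.13 and 1.13 in Bell_L. Buccal Adm read 0.632, 0.628 and 0.739 CPM in Cap_B, 4.12, 5.29 and 4.05 in Cap_B_2D and 1.02, 0.747 and 0.927 in Bell_B. Undivided mesenchyme held 0.556, 0.428 and 0.268 CPM in Cap_W and 0.577, 1.05 and 1.49 in Bell_W. Adm rose most of all members, to 4.45 times its lingual and 6.54 times its buccal cap level (2.15 ± 0.18, adjusted p = 1.23e-10 and 2.71 ± 0.19, adjusted p = 2.38e-14), from a cap level under 1 CPM. Vegfa stood at 158, 154 and 159 CPM in Cap_L, 211, 213 and 206 in Cap_L_2D and 142, 137 and 146 in Bell_L. The buccal Vegfa values were 179, 177 and 177 CPM in Cap_B, 203, 207 and 212 in Cap_B_2D and 147, 139 and 148 in Bell_B. In undivided mesenchyme Vegfa was at 138, 158 and 152 CPM in Cap_W and 127, 144 and 128 in Bell_W. Vegfa was higher in all cultured libraries than in the cap libraries of their side, within the fold limit (0.42 ± 0.041 and 0.20 ± 0.033).

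Car9 and Car12, carbonic anhydrases that acidify the outside of the cell, did not pass in culture. Car12 read 25.2, 24.1 and 25.8 CPM in Cap_L, 23.8, 27.2 and 24.2 in Cap_L_2D and 32.3, 32.6 and 31.1 in Bell_L. Buccal Car12 read 27.4, 27.9 and 27.6 CPM in Cap_B, 21.5, 24.2 and 22.8 in Cap_B_2D and 42.3, 40.2 and 38.9 in Bell_B. Undivided mesenchyme held 14.2, 17.6 and 24.9 CPM in Cap_W and 17.2, 13.1 and 41.1 in Bell_W. Lingual Car12 overlapped its cap level and buccal Car12 was below it (0.010 ± 0.061 and -0.30 ± 0.055). Car9, whose exons lie over those of other genes for 28.6% of their length, was at -0.26 and -0.29. Among the genes of mitochondrial clearance and respiration, Bnip3 fell in lingual culture by 0.54 on the log2 scale, and did not pass without Cap_L replicate 2. In buccal culture it was at -0.48. Bnip3l stood at 71.6, 79.7 and 71.6 CPM in Cap_L, 68.5, 76.8 and 69.97 in Cap_L_2D and 75.5, 82.8 and 78.4 in Bell_L. The buccal Bnip3l values were 80.6, 79.2 and 76.4 CPM in Cap_B, 62.3, 60.6 and 55.03 in Cap_B_2D and 72.6, 71.4 and 72.1 in Bell_B. In undivided mesenchyme Bnip3l was at 89.95, 77.5 and 91.1 CPM in Cap_W and 88.1, 89.6 and 74.9 in Bell_W. Its relative Bnip3l, also a mitophagy receptor, overlapped its cap level in lingual culture and was lower within the limit in buccal culture (-0.045 ± 0.053 and -0.43 ± 0.042). Higd1a, a mitochondrial protein, was at -0.084 and -0.22.

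P4ha1 and P4ha2 encode the catalytic subunits of collagen prolyl hydroxylase. P4ha1 rose in lingual culture by 0.51 on the log2 scale, close enough to the limit that it did not pass without Cap_L replicate 3 or Cap_L_2D replicate 3, and was at 0.48 in buccal culture. P4ha2 read 66.8, 65.3 and 68.3 CPM in Cap_L, 104, 100.3 and 102 in Cap_L_2D and 63.3, 56.3 and 59.7 in Bell_L. Buccal P4ha2 read 60.2, 57.1 and 60.9 CPM in Cap_B, 75.8, 77.7 and 81.2 in Cap_B_2D and 52.8, 49.7 and 52.7 in Bell_B. Undivided mesenchyme held 46.5, 61.2 and 58.6 CPM in Cap_W and 39.6, 44.5 and 39.2 in Bell_W. P4ha2 was higher in every cultured library than in any uncultured library and passed on the lingual side (0.62 ± 0.046, adjusted p = 1.29e-11; 0.38 ± 0.041 buccal). Ero1a, an oxidase of disulfide formation, was at -0.17 and -0.16 and passed nowhere.

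Of the remaining HIF targets, Ankrd37 fell and Ndrg1 rose. Ankrd37 stood at 2.40, 2.62 and 2.79 CPM in Cap_L, 0.410, 0.842 and 0.884 in Cap_L_2D and 1.29, 2.26 and 1.66 in Bell_L. The buccal Ankrd37 values were 1.67, 2.30 and 1.87 CPM in Cap_B, 0.961, 0.975 and 0.918 in Cap_B_2D and 1.84, 1.14 and 2.28 in Bell_B. In undivided mesenchyme Ankrd37 was at 2.45, 2.07 and 2.15 CPM in Cap_W and 1.58, 1.63 and 1.97 in Bell_W. Ankrd37, a small ankyrin-repeat protein gene, was at low counts in all groups, lay over exons of other genes for 26.4% of its exon length, and fell in both cultures (-1.80 ± 0.23, adjusted p = 1.39e-07 and -1.05 ± 0.22, adjusted p = 0.000108). Ndrg1 read 28.5, 29.8 and 27.9 CPM in Cap_L, 50.2, 53.04 and 54.4 in Cap_L_2D and 44.2, 42.98 and 41.99 in Bell_L. Buccal Ndrg1 read 17.3, 16.1 and 16.7 CPM in Cap_B, 23.5, 24.2 and 23.9 in Cap_B_2D and 29.6, 28.6 and 28.8 in Bell_B. Undivided mesenchyme held 5.67, 9.05 and 8.36 CPM in Cap_W and 19.3, 18.6 and 28.4 in Bell_W. Ndrg1, a stress and differentiation gene, rose in lingual culture (0.88 ± 0.051, adjusted p = 1.02e-13) and lay on the limit without passing in buccal culture (0.50 ± 0.056). Kdm3a stood at 83.5, 75.9 and 81.7 CPM in Cap_L, 62.1, 63.4 and 62.2 in Cap_L_2D and 65.7, 70.2 and 65.2 in Bell_L. The buccal Kdm3a values were 88.3, 88.1 and 88.1 CPM in Cap_B, 79.1, 79.8 and 79.2 in Cap_B_2D and 67.4, 66.02 and 66.8 in Bell_B. In undivided mesenchyme Kdm3a was at 108, 101.1 and 110.3 CPM in Cap_W and 71.99, 70.96 and 65.8 in Bell_W. Kdm3a, a histone demethylase gene, was below its cap level in all cultured libraries without passing (-0.35 ± 0.048 and -0.17 ± 0.035). Mxi1 read 28.3, 29.7 and 26.5 CPM in Cap_L, 35.7, 36.8 and 34.9 in Cap_L_2D and 30.4, 28.8 and 29.7 in Bell_L. Buccal Mxi1 read 26.3, 25.98 and 27.1 CPM in Cap_B, 30.4, 29.3 and 27.6 in Cap_B_2D and 22.9, 25.2 and 22.6 in Bell_B. Undivided mesenchyme held 34.1, 24.1 and 25.5 CPM in Cap_W and 18.96, 24.2 and 27.1 in Bell_W. Mxi1, a Myc antagonist, was above its cap level and did not pass either (0.35 ± 0.055 and 0.12 ± 0.055).

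The next question was what the same genes did over a like time in the embryo. From cap to bell, 4 members rose and 3 fell in the lingual part (all genes 14.2% and 5.78%, in all 20.0%), 4 rose and 0 fell in the buccal part (all genes 12.0% and 6.73%, in all 18.7%), and 4 rose and 1 fell in undivided mesenchyme (all genes 10.3% and 4.21%). Without the fold limit (adjusted p under 0.05) 8 members were higher and 20 lower at the bell stage in the lingual part (all genes 26.5% and 23.6%). In the buccal part these counts were 13 and 15 (all genes 24.5% and 23.5%). The 0 was the count by edgeR and by DESeq2 alike, and at an unadjusted p under 0.05 15 members had a negative change. Pfkp, Epas1 and Ndrg1 passed in all 3 comparisons. Pfkp rose by 0.63 in the lingual part, 0.69 in the buccal part and 1.33 in undivided mesenchyme, on the log2 scale. For Epas1 these values were 0.57, 0.67 and 1.56, and the endothelial sum also rose, to 745 to 769.6 CPM in Bell_L and 681 to 693 CPM in Bell_B. Ndrg1 rose by 0.59, 0.79 and 1.499. In the groups of these 3 genes no bell library overlapped a cap library of the same tissue. Slc16a3 (-0.54 ± 0.063), Aldoc (-0.78 ± 0.12) and Ankrd37 (-0.57 ± 0.19) fell in the lingual part. Whether the stage change of these 3 genes differed between the sides was not tested. Slc16a3 did not pass without Cap_L replicate 2, and Aldoc not when all 24 libraries shared 1 estimate of spread. The lingual rise of Adm (0.56 ± 0.23, adjusted p = 0.0446) did not pass when any single library of that comparison was left out. The fall of Ankrd37 did not pass without Bell_L replicate 1 or 3. Neither of these 2 calls passed by DESeq2 or when all 24 libraries shared 1 estimate of spread. Car12 rose in the buccal part (0.54 ± 0.051), but did not pass in the edgeR fit of all 24 libraries (adjusted p = 0.11). Eno2 rose (0.83 ± 0.14) and Kdm3a fell (-0.63 ± 0.096) in undivided mesenchyme, where replicates spread more widely. The culture and stage comparisons of a side share their cap libraries, so their values are set side by side and not correlated: Slc16a3 was at -2.40 in buccal culture and 0.20 from Cap_B to Bell_B, Pdk1 at -1.15 and -0.032 on the lingual side, and Pfkfb3 at 1.37 and -0.50.

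Cultured parts were then compared with bell-stage parts, the tissue of the matching embryonic age. In the lingual part 6 members were higher and 7 lower in culture (all genes 14.4% and 16.8%), and in the buccal part 6 were higher and 12 lower (all genes 15.5% and 16.3%). Pfkfb3, Adm, P4ha2 and Vegfa were higher in culture on both sides. Pfkfb3 differed by 1.86 ± 0.049, adjusted p = 1.24e-20 on the lingual and 1.09 ± 0.047, adjusted p = 7.26e-20 on the buccal side, and Adm by 1.60 ± 0.17, adjusted p = 1.28e-08 and 2.29 ± 0.17, adjusted p = 6.61e-14. Vegfa passed at 0.56 ± 0.042 and 0.51 ± 0.033, the latter not without Cap_B_2D replicate 3 or Bell_B replicate 2. Hk2 (1.00 ± 0.052) and P4ha1 (0.58 ± 0.042) were higher in lingual culture, and Egln3 (1.29 ± 0.059) and Pfkp (0.60 ± 0.051) in buccal culture. Lower on both sides were Slc16a3, Pfkl, Pdk1, Tpi1, Ankrd37 and Bnip3. For Slc16a3 the difference was -1.44 ± 0.074, adjusted p = 1.27e-14 lingual and -2.60 ± 0.071, adjusted p = 2.33e-25 buccal, and for Pfkl -1.13 ± 0.055, adjusted p = 4.66e-15 and -1.29 ± 0.042, adjusted p = 3.24e-23. Eno1 was lower in lingual culture (-0.74 ± 0.058). Epas1 (-1.26 ± 0.048), Aldoc (-1.15 ± 0.12), Car12 (-0.84 ± 0.051), Ldha (-0.64 ± 0.033), Ldhb (-0.61 ± 0.058) and Pgam1 (-0.55 ± 0.039) were lower in buccal culture, Ldhb not so with its copy's counts added (-0.50).

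**Figure D4:**
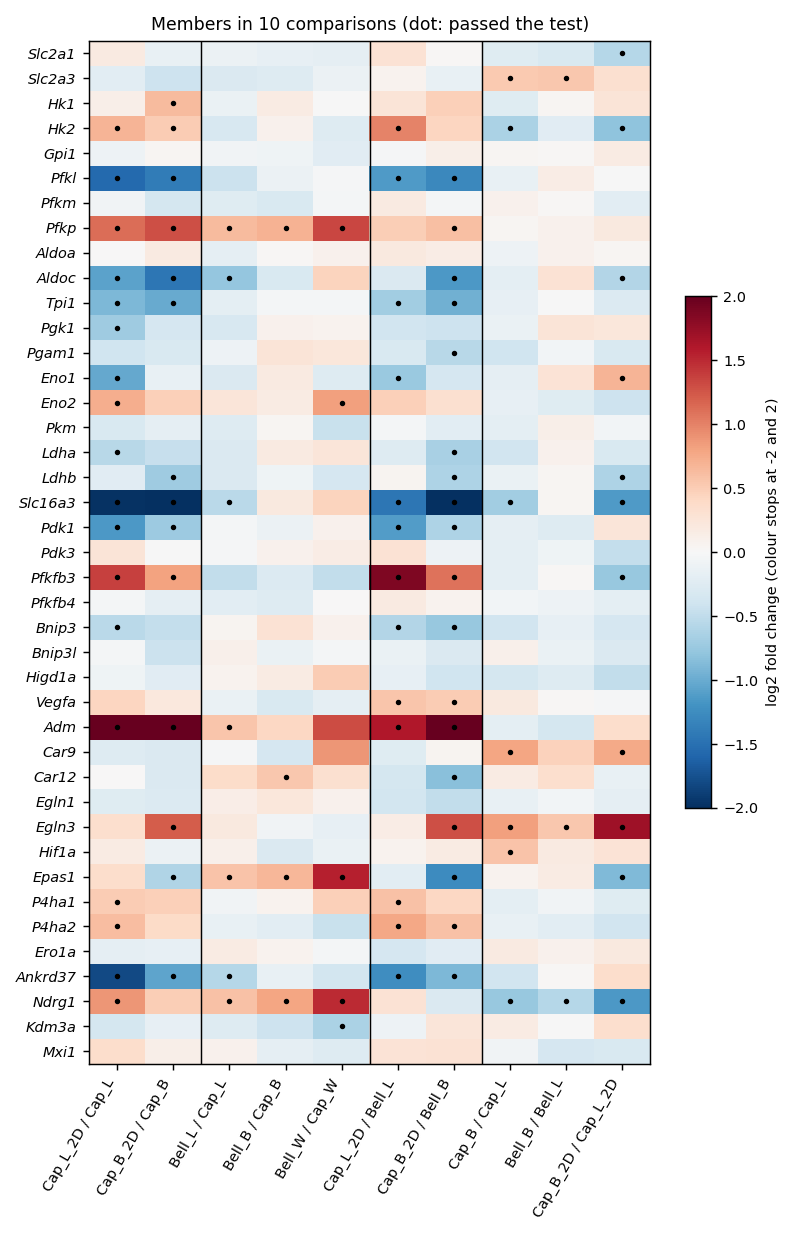
Log2 fold change (colour, stopping at -2 and 2) of the 41 members (rows, by role) in 10 comparisons (columns, each named as numerator / denominator group), with a dot where the test passed. The 2 culture columns and the 2 columns of culture over bell carry most dots, and the bell over cap columns share Pfkp, Epas1 and Ndrg1.

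The lingual and buccal parts themselves were compared next. At the cap stage 4 were higher in the buccal and 3 in the lingual part (all genes 10.4% and 7.10%). Without the fold limit the balance was 8 higher in the buccal and 20 in the lingual part (all genes 21.7% and 20.7%). The buccal ones were Egln3 (0.82 ± 0.089), Car9 (0.80 ± 0.12), Hif1a (0.56 ± 0.045) and Slc2a3 (0.52 ± 0.070), the last not passing without Cap_L replicate 2 or Cap_B replicate 3. The lingual ones were Ndrg1 (-0.76 ± 0.060), Slc16a3 (-0.70 ± 0.061) and Hk2 (-0.63 ± 0.051), where a negative value means higher in the lingual part. At the bell stage Egln3 (0.54 ± 0.083) and Slc2a3 (0.53 ± 0.065) were higher in the buccal and Ndrg1 (-0.57 ± 0.047) in the lingual part (all genes 6.00% and 6.88%), with Egln3 not passing without Bell_L replicate 2 and Slc2a3 not passing without Bell_B replicate 2. After culture 3 were higher in the buccal and 8 in the lingual part (all genes 12.5% in each direction). Egln3 differed most (1.69 ± 0.064, adjusted p = 1.66e-17), followed on the buccal side by Car9 (0.76 ± 0.12) and Eno1 (0.68 ± 0.047). Ndrg1 (-1.15 ± 0.050), Slc16a3 (-1.13 ± 0.093), Epas1 (-0.89 ± 0.056), Hk2 (-0.81 ± 0.042), Pfkfb3 (-0.76 ± 0.040), Ldhb (-0.62 ± 0.066), Aldoc (-0.58 ± 0.14) and Slc2a1 (-0.57 ± 0.043) were higher in the lingual part, Aldoc not passing without Cap_L_2D replicate 3 or Cap_B_2D replicate 1. Ndrg1, higher in the lingual part, and Egln3, higher in the buccal part, were the members that passed at cap, at bell and after culture. Both differed more after culture than at the cap stage by the interaction test that follows. Neither passed that edgeR test when all 24 libraries shared 1 estimate of spread (adjusted p 0.19 for Ndrg1 and 0.051 for Egln3).

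Whether culture acted differently on the parts was tested as an interaction, and 22 of 41 members (53.7%) passed at an adjusted p under 0.05, with 35.5% of all genes. The buccal change was the more negative in 16 (all genes 19.5%) and the more positive in 6 (all genes 16.0%). In 5 members the difference exceeded 0.5 on the log2 scale: Epas1 (-0.96 ± 0.089, adjusted p = 3.6e-10), Pfkfb3 (-0.57 ± 0.066, adjusted p = 3.89e-08), Eno1 (0.87 ± 0.078, adjusted p = 2.16e-10), Egln3 (0.88 ± 0.11, adjusted p = 1.95e-07) and Hk1 (0.50 ± 0.074, adjusted p = 2.52e-06). Epas1 was above its cap level in lingual culture (0.36) and fell in buccal culture (-0.60), Eno1 fell on the lingual side and Egln3 and Hk1 rose on the buccal side, and Pfkfb3 rose on both but more on the lingual. When all 24 libraries shared a single estimate of spread, 8 members passed (19.5%, with 17.3% of all genes), among them Epas1, Pfkfb3, Eno1 and Hk1. Egln3 did not pass there, with a difference of 0.91 and an adjusted p of 0.051 by edgeR.

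Other genes of the same pathway, from lists drawn up beside the members, were tested the same way, where 19.6% of all genes rose and 15.9% fell in lingual culture and 17.9% and 16.6% in buccal culture. Of 18 further glycolysis genes 14 could be tested. In lingual culture 2 rose (14.3%) and 2 fell, and in buccal culture 5 rose (35.7%) and 2 fell. Hk3, a hexokinase of blood cells, rose (2.61 lingual and 2.52 buccal), and Hkdc1 (-1.61 and -1.97) fell, beside the macrophage and epithelial sums given above, whose part was not tested. Gapdh, the step that the members leave out and another gene with many processed copies, was at -0.19 and 0.11 and did not pass. Of 35 further HIF targets 16 rose (45.7%) and 3 fell (8.57%) in lingual culture and 11 rose (31.4%) and 7 fell (20.0%) in buccal culture, with medians of 0.41 and 0.22. Among those that changed at least 2-fold alike on both sides were the clock-linked repressors Bhlhe40 (2.85 and 2.78) and Bhlhe41 (3.26 and 3.85), the stanniocalcins Stc1 (1.85 and 1.29) and Stc2 (1.72 and 3.21), the haem oxygenase Hmox1 (3.23 and 2.51), the binding protein Igfbp3 (2.19 and 1.65) and, falling, the mitochondrial subunit gene Ndufa4l2 (-2.95 and -3.05). Of 6 further genes of oxygen sensing, 1 fell on each side, the alpha subunit gene Hif3a (-0.85 and -0.88), which the rule for naming genes did not cover and which is named after its values were seen.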

How the data were processed

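Paired-end RNA-seq libraries were made from dental mesenchyme of ICR mouse embryos. The deposited table holds raw counts of read pairs per gene, made by the authors with featureCounts over the exons of the GRCm39 Ensembl annotation, without regard to strand and without multi-mapping reads, per the file headers. The header names Subread 2.0.0, and the submitters' processing notes list Subread 2.0.3, Bowtie 1.2.3, Trimmomatic 0.39 and FastQC 0.12.1, with no role given. The labels and the study's methods name different library kits, and differ on whether replicates numbered 3. Counting without strand cannot separate overlapping or antisense genes, and reads of near-identical copies may be lost or misplaced.

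Symbols were matched by Ensembl identifier to GENCODE (56017 of 56748 genes). Counts were scaled by TMM and tested with the quasi-likelihood test of edgeR 4.0.16 (limma 3.58.1, R 4.3.3) on the libraries of each comparison, after edgeR's default filter on low counts, with Benjamini-Hochberg adjustment over all genes tested. A call needed an adjusted p under 0.05 and, outside the interaction, an absolute log2 fold change over 0.5. An exact permutation test of 3 against 3 libraries cannot go below p = 0.1 (two-sided), so it was not used. The procedure was tested on simulated data. Copies of members were sought as genes sharing at least 20% and 100 of their transcripts' 25-base words with the member. Depth was 20581720 to 39266497 counts per library, and the detection floor of 3 counts covers counting error only. No 2 libraries held identical values.

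The members and gene lists were chosen with earlier results of these data known. Full values are given for members called in a culture comparison with an absolute log2 fold change of at least 1, called in the interaction, or sensing oxygen. The rest are given by counts and ranges. Other genes of the pathway lists are named where called alike in both cultures with an absolute log2 fold change of at least 1, besides Gapdh, except for 2 genes that are not reported here, and promoters are shown for at most 5 members. Alternatives were RLE scaling, DESeq2 1.42.0, no low-count filter, no fold limit, scaling without the 100 most abundant genes, all 24 libraries in one fit, a replicate block and leaving out each library. Adding the copies' counts and leaving out 2 undivided libraries were chosen after seeing the data.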

Additional observations from a re-analysis of the deposited data

Results flagged for a closer look

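In 22 members the change in culture differed between the buccal and the lingual part by the interaction test of edgeR (adjusted p under 0.05), each value being the buccal minus the lingual change on the log2 scale. The buccal change was the more negative for Epas1 (-0.96), Pfkfb3 (-0.57), Ldhb (-0.48), Slc16a3 (-0.43), Bnip3l (-0.39), Ndrg1 (-0.39), Slc2a1 (-0.34), Car12 (-0.31), Hif1a (-0.30), Pfkm (-0.29), Pdk3 (-0.28), Eno2 (-0.26), P4ha2 (-0.25), Mxi1 (-0.24), Vegfa (-0.23) and Hk2 (-0.18). It was the more positive for Egln3 (0.88), Eno1 (0.87), Hk1 (0.50), Pdk1 (0.42), Pgk1 (0.37) and Kdm3a (0.17). The call was lost for Kdm3a in 8 of 19 alternatives (7 of them with a single library left out), for Hk2 in 6 (4), for Mxi1 in 4 (3) and for Eno2 in 2 (1), and for 14 members, Hk2, Mxi1 and Eno2 among them, when all 24 libraries shared 1 estimate of spread. Epas1, the gene of the other HIF alpha subunit, carried the widest gap and Kdm3a the narrowest. Hif1a passed in neither culture, and its values there, 0.17 lingual and -0.12 buccal, differed by this test. Groups of 3 libraries were not searched for single outlying values.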

How the results depend on the processing

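Outside the interaction, the alternatives include the main fit without the fold limit, where a call could not be lost. Over all alternatives, 1755 of 1823 values of called members kept their call, 68 lost it and 0 changed sign. The largest part of these losses concerned differences between the sides in culture: with all 24 libraries in one fit, 4 members had the more negative and 4 the more positive buccal change (reported 16 and 6; all genes 8.87% and 8.43%, before 19.5% and 16.0%). That fit also gave 7 members higher from Cap_W to Bell_W (reported 4) and 1 higher in Bell_B than in Bell_L (reported 2), and the cause was not tested. Without the fold limit of 0.5 (adjusted p under 0.05), more members passed, higher and lower. In lingual culture 16 and 17 passed (reported 8 and 10), or 39% and 41.5% of members, with 32.2% and 33.7% of all genes. In buccal culture 12 and 26 passed (reported 6 and 8), or 29.3% and 63.4%, with 32.5% and 34.6%. From Cap_L to Bell_L 8 and 20 passed (all genes 26.5% and 23.6%), and from Cap_B to Bell_B 13 and 15 (24.5% and 23.5%). Undivided mesenchyme gave 5 and 2 (all genes 10.8% and 5.5%). Against the bell stage, lingual culture gave 16 and 15 (all genes 30.1% and 31.2%) and buccal culture 15 and 21 (32.5% and 33.2%). Buccal against lingual, 8 and 20 passed at cap (all genes 21.7% and 20.7%). At bell 12 and 9 passed (17.7% and 19.3%), and in culture 13 and 22 (27% and 27.6%). Leaving out single libraries gave 7 to 8 higher and 8 to 10 lower in lingual culture, 5 to 8 and 8 to 9 in buccal culture, 1 to 3 lower from Cap_W to Bell_W (3 without Cap_W replicate 1 or Bell_W replicate 3) and 1 to 3 higher in Bell_B than in Bell_L (1 without Bell_L replicate 2). Without both of those undivided libraries, a choice made after seeing the data, 6 members rose and 4 fell from Cap_W to Bell_W. RLE scaling, DESeq2, no low-count filter and the copies' counts moved no such count by over 1.5 times. Same-numbered libraries deviated together little (mean correlation -0.085 to 0.083 by comparison, single pairs of libraries -0.13 to 0.20). With 3 libraries a group and the embryos of each library unknown, this cannot tell whether the numbers pair them. The fit with a replicate block gave 8 higher and 10 lower in lingual and 6 and 8 in buccal culture. At 3 libraries a group and CPM under 3, as for Ankrd37 and the uncultured libraries of Adm, standard errors of 0.18 to 0.23 limit what can be told apart.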

Other observations

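A list of 19 genes of amino acid supply and endoplasmic reticulum stress rose in most of its genes in culture: 12 rose on the lingual side and 14 on the buccal side, where 19.6% and 17.9% of all genes rose, with median log2 fold changes of 0.74 and 1.07, beside -0.032 and -0.020 over all genes. Their summed level was 2304 to 2430 CPM in Cap_L and 3521 to 3563 CPM in Cap_L_2D, and 2084 to 2098 CPM in Cap_B and 3377 to 3447 CPM in Cap_B_2D. Chac1, which breaks down glutathione, was at 4.63 and 5.23, Trib3, a stress pseudokinase, at 2.97 and 4.49, the transcription factor Atf3 at 3.26 and 2.22, and Asns, asparagine synthetase, at 0.94 and 2.12 (lingual and buccal log2 fold changes, all called by edgeR). Atf4, which drives several of them and is itself controlled at translation, was at 0.21 and 0.28. From cap to bell 3 of the 19 rose on each side, a share near the 14.2% and 12.0% of all genes. These genes were named after their values were seen.

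Of all genes tested, 19.6% rose and 15.9% fell in lingual culture and 17.9% and 16.6% in buccal culture. Of 25 genes of pyruvate entry and the citric acid cycle, 1 rose on each side, the pyruvate dehydrogenase phosphatase gene Pdp1 (0.86 and 0.66). Of 7 pentose phosphate genes, Rpia fell on both sides (-0.69 and -0.74) and Tkt on the buccal side (-0.54). The muscle isozyme genes Eno3 and Pgam2 were at 0.39 and 0.22 in lingual culture and rose by 1.83 and 1.92 in buccal culture. The muscle gene sum was highest in buccal culture but rose on both sides, and its part in these values was not tested. Of 9 cartilage genes tested, 6 rose and 1 fell in lingual and 5 rose in buccal culture. Of 9 glial genes, 2 rose and 5 fell in lingual and 1 rose and 7 fell in buccal culture, Sox10 by 4.24 and 5.60 on the log2 scale.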
